A study of Nicotiana tabacum with 18 samples.

Results

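The tobacco hybrid K326×GDH88 was compared with the mid-parent value, the average of its parents K326 and GDH88. The deviation of a gene was the mean of the 3 hybrid libraries minus the average of the K326 mean and the GDH88 mean, on log2(FPKM + 1), where FPKM is the number of sequenced fragments of a transcript scaled for its length and for the size of the library. A deviation of 1 is therefore about a 2-fold difference, and a larger fold difference in FPKM for genes of low level. Genes with a mean of at least 1 FPKM in any of the 3 genotypes were taken, which gave 35438 of the 69500 genes in the table. RNA came from leaves of field-grown Nicotiana tabacum plants 45 days after transplantation, with 3 biological replicates of K326, of GDH88 and of K326×GDH88. Both parents are tobacco varieties or lines of unlike leaf biomass, and the study's methods describe a leaf sample as mixed from 3 plants of a plot. A second cross, the hybrid Va116×GDH94 beside Va116 and GDH94, was sampled at the same age and gave the other 9 of the 18 libraries.

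In a hybrid each parent gives a copy of every gene, and where the copies are transcribed as they were in the parents the RNA level is near the mid-parent value. A level that departs from it is called non-additive. Levels like those of a parent are called dominant, and levels beyond both parents are called overdominant, a pattern that is often discussed in work on heterosis, the larger growth of hybrids. Leaf tissue holds mostly mesophyll cells, whose RNA is rich in transcripts for Rubisco, the enzyme that fixes carbon dioxide, and for the proteins that bind chlorophyll.

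The libraries of the cross held 43126 to 43734 genes above 0, and the FPKM of a library summed to 887628 to 936804 in K326, 941930 to 946270 in GDH88 and 972830 to 1062588 in K326×GDH88. Numbers of reads per gene were not at hand, so errors were judged by the replicates, whose median SD on the log2 scale was 0.13 in K326, 0.08 in GDH88 and 0.15 in K326×GDH88. The 2 small chains of Rubisco that were tested had 8572 to 25808 FPKM in the 9 libraries, which is what leaf tissue is known for. No 2 libraries held identical values. The tests measure the spread between the 3 replicates, each a mixed sample of plants. In whole leaf, a changed share of a cell type and a changed amount of RNA per cell cannot be told apart. Tobacco carries the genomes of its ancestors side by side, and near-identical gene copies can share reads, so values of close copies are uncertain.

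K326×GDH88 departed from the mid-parent value in many genes but mostly by little. Of the genes tested, 3853 lay above the mid-parent value (10.9%) and 8444 lay below it (23.8%) at an adjusted p under 0.05 in limma, 34.7% in all. The median size of a called deviation was 0.41, and 226 genes lay 1 or more above (0.638%) and 115 genes 1 or more below (0.325%). All 3 hybrid libraries were higher than all 6 parent libraries in 2563 genes (7.23%) and lower in 5944 genes (16.8%). The median deviation over all genes tested was -0.10, so that a typical gene lay a little below the mid-parent value. This median and the split of the calls followed the scaling of the libraries. With median-ratio scaling the median was 0.01 and 6166 genes lay above (17.4%) against 5015 below (14.2%), with quantile normalization the median was -0.01 and the counts were 4699 (13.3%) and 5618 (15.9%), and with libraries scaled to equal totals the median was -0.20 and the counts were 2446 (6.89%) and 13004 (36.6%). Genes called the same way under the deposited values and all 3 scalings numbered 2302 above and 4484 below, and among the genes that deviated by 1 or more they numbered 225 of 226 above and 111 of 115 below. Without the second library of K326×GDH88, which had the largest sum of FPKM, 2569 genes lay above (7.25%) and 4645 below (13.1%), and without the first library of this hybrid 5558 lay below (15.7%) and 9.55% above. Without the third library of the hybrid 10.6% lay above and 25.9% below. Leaving out a K326 library gave 9.78%, 10.4% and 9.78% above and 19.6%, 24.6% and 20.5% below for the first to the third library, and leaving out a GDH88 library gave 8.66%, 8.69% and 8.66% above and 17.4%, 18.2% and 17.8% below.

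Among genes with a mean of 1 FPKM or more, the direction of the deviation went with the level of the gene. Among genes with a mean of 100 to 1000 FPKM over the 9 libraries, 44.3% lay above the mid-parent value and 9.78% below, with a median deviation of 0.19. Among the 85 genes of 1000 FPKM or more, 36 lay above and 3 below. Genes of 1 to 5 FPKM showed the opposite, with 4.95% above, 23.2% below and a median of -0.15. Those under 1 FPKM did not follow this order, with 10.1% above and 9.30% below. When genes were sorted by the 6 parent libraries, 19.6% of the class under 1 FPKM lay above and 3.68% below. The classes of 1 FPKM or more kept this order when genes were sorted by their mean in the 9 libraries of the other cross. There 41.6% of the genes at 100 to 1000 FPKM lay above and 11.4% below. These classes also kept it with median-ratio scaling, where 57.4% of the genes at 100 to 1000 FPKM lay above and 4.63% below. The order was lost with quantile normalization, which gives each library the same distribution of values, and the shares in that class were then 24.6% above and 22.4% below. In the same libraries the 100 most abundant genes took 27.4% to 28.1% of all FPKM in K326×GDH88, 23.1% to 26.0% in K326 and 24.9% to 25.1% in GDH88, with no overlap between the hybrid and its parents.

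**Figure D1:**
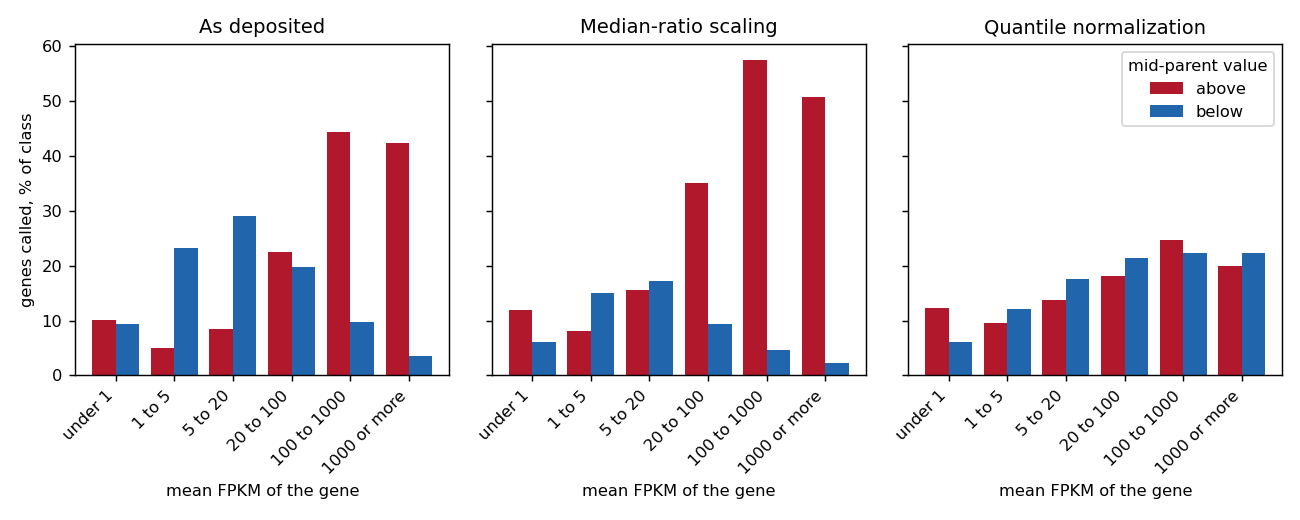
Share of genes called above (red) and below (blue) the mid-parent value in K326×GDH88, in percent of each class of mean FPKM over the 9 libraries, for 3 treatments of the values. In the class of 100 to 1000 FPKM the shares were 44.3% above and 9.78% below as deposited and 24.6% and 22.4% after quantile normalization.

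Of the 2 small chains of Rubisco tested, the one with the larger deviation was Nitab4.5_0002207g0050, with 10732, 8572 and 14947 FPKM in K326, 10605.5, 11294 and 12679 FPKM in GDH88 and 23870.0, 17721 and 25808 FPKM in K326×GDH88. Each hybrid library exceeded every parent library, and the deviation was 0.97 (SE 0.17, adjusted p = 0.0031). In Va116×GDH94 the deviation of this gene was -8.68, and the cause of that value was not tested. A second small chain, Nitab4.5_0001382g0020, had 11155, 12921 and 12313 FPKM in K326, 14782, 15425 and 15503 FPKM in GDH88 and 15614, 17682 and 17051 FPKM in K326×GDH88, so that the hybrid libraries were again the highest, by a narrow margin over GDH88, with a deviation of 0.30 (SE 0.08, adjusted p = 0.0194). After quantile normalization neither of these small chains was called, and the deviation of Nitab4.5_0002207g0050 was then 0.35. The number of small chains called was 1 without any single GDH88 library and without the second or the third hybrid library. The 4 tested genes described as large chain of Rubisco, at 0.19 to 8.04 FPKM, were not called, with deviations of -0.18 to 0.07.

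The largest deviations belonged to defence genes of the PR-1 type. PR-1 proteins are small secreted proteins of the CAP family that accumulate in tobacco leaves after infection and after salicylic acid. Nitab4.5_0003771g0010 had 4.57, 9.68 and 47.8 FPKM in K326, 2.76, 1.27 and 1.34 FPKM in GDH88 and 632.5, 531 and 168.5 FPKM in K326×GDH88. The lowest hybrid library was still above the highest K326 library, and GDH88 was the lowest genotype. Its deviation was 5.95 (SE 0.60, adjusted p = 0.000194), and it ran from 5.59 to 6.54 when each library was left out in turn. Nitab4.5_0004861g0030 had 1.57, 1.79 and 13.3 FPKM in K326, 0.87, 0.59 and 0.47 FPKM in GDH88 and 204, 149.6 and 52.5 FPKM in K326×GDH88, which put the 3 hybrid libraries above all others with a deviation of 5.42 (SE 0.53, adjusted p = 0.000175). Nitab4.5_0014031g0010 had 4.58, 4.37 and 8.98 FPKM in K326, 3.65, 3.11 and 2.19 FPKM in GDH88 and 97.6, 88.8 and 42.6 FPKM in K326×GDH88, and its deviation was 3.83 (SE 0.27, adjusted p = 3.5e-05). Nitab4.5_0005400g0020, the CAP gene with the highest level in the parents, had 25.7, 34.5 and 40.97 FPKM in K326, 15.4, 16.1 and 13.5 FPKM in GDH88 and 430.0, 424 and 151 FPKM in K326×GDH88 and deviated by 3.70 (SE 0.29, adjusted p = 6.0e-05). In all 4 of these genes the third library of K326×GDH88 was the lowest of the hybrid, and the third library of K326 was the highest of K326. The other 2 of the 6 tested CAP genes, at 0.07 to 3.96 FPKM, were not called.

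**Figure D2:**
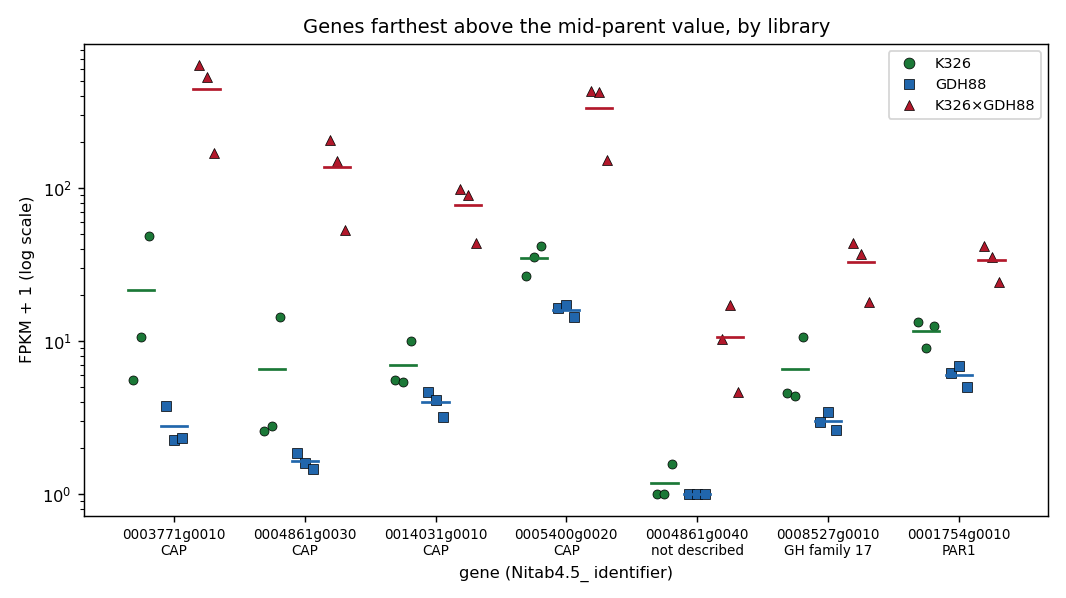
FPKM + 1 on a log scale in each library of K326 (circles), GDH88 (squares) and K326×GDH88 (triangles) for 7 genes far above the mid-parent value, with bars at the mean of 3 libraries. The hybrid libraries lay above all 6 parent libraries in each gene, for example at 168.5 FPKM or more against 47.8 FPKM or less in Nitab4.5_0003771g0010.

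The next genes are those that complete the 6 highest deviations, overall and among genes with a known description. Nitab4.5_0004861g0040, a gene without a description whose identifier follows that of a CAP gene on the same scaffold, was listed at 0 in all GDH88 libraries and in 2 of 3 K326 libraries and had 9.26, 16.2 and 3.64 FPKM in the hybrid. Nitab4.5_0008527g0010, of glycoside hydrolase family 17, which includes the beta-1,3-glucanases that cut a polymer of fungal walls, had 3.61, 3.39 and 9.64 FPKM in K326, 1.96, 2.46 and 1.62 FPKM in GDH88 and 42.6, 35.9 and 16.96 FPKM in K326×GDH88. Its hybrid libraries were all higher than its parent libraries, with a deviation of 2.86 (SE 0.31, adjusted p = 0.000294). Nitab4.5_0001754g0010, described as PAR1, a protein first named in tobacco leaves for its response to photoassimilates, had 12.4, 8.08 and 11.5 FPKM in K326, 5.18, 5.87 and 3.98 FPKM in GDH88 and 40.7, 34.3 and 23.4 FPKM in K326×GDH88. It deviated by 1.99 (SE 0.18, adjusted p = 9.4e-05), again with no overlap between hybrid and parents.

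Of the 18 tested genes on the list of pathogenesis-related proteins, 9 lay above the mid-parent value, beside 10.9% of all genes tested. On this list 0 lay below (1 at an unadjusted p under 0.05 in limma), and the median deviation was 0.44, beside -0.10 over all genes tested. The count above was 7 to 9 under the 3 scalings, and with equal totals 2 members lay below. Without single libraries the count above was 7 to 11. Their summed level was 289 to 463 FPKM in K326, 129 to 136 FPKM in GDH88 and 1623, 1476 and 665.5 FPKM in the hybrid, so the third hybrid library was well under the others but above all parents. Much of the hybrid sum came from genes named for their high deviations. Nitab4.5_0003771g0010 alone had 632.5, 531 and 168.5 FPKM there. No sum was taken without the CAP genes, so it does not show that the rest of the list lay above both parents. Thaumatin-like Nitab4.5_0000360g0100 is of the PR-5 family, with 14.8, 14.8 and 24.6 FPKM in K326, 4.13, 4.23 and 4.58 FPKM in GDH88 and 41.4, 37.5 and 23.98 FPKM in K326×GDH88, a deviation of 1.79 (SE 0.18, adjusted p = 0.000215). Here the third hybrid library lay just under the third K326 library. Nitab4.5_0000022g0230, a family 19 glycoside hydrolase as plant chitinases are, lay above by 1.05. Among genes off this list, Nitab4.5_0003779g0100 of family 18, which also holds chitinases, had 7.52, 5.08 and 6.78 FPKM in K326, 12.7, 13.2 and 10.6 FPKM in GDH88 and 44.6, 46.7 and 26.2 FPKM in K326×GDH88 and lay above by 1.99. These 3 genes were picked by hand after their values were seen, and the CAP genes were named for having the highest deviations.

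Ornithine decarboxylase removes carbon dioxide from ornithine to give putrescine, a precursor of polyamines and of nicotine. A pair of genes with this description lay above both parents, and they too were picked after their values were seen. Nitab4.5_0005973g0010 had 4.11, 3.78 and 2.94 FPKM in K326, 6.18, 7.2 and 6.05 FPKM in GDH88 and 12.4, 18.4 and 20.1 FPKM in K326×GDH88, and Nitab4.5_0001180g0140 had 2.71, 2.94 and 2.85 FPKM in K326, 4.26, 5.22 and 4.87 FPKM in GDH88 and 10.9, 15.4 and 14.7 FPKM in K326×GDH88. All 3 hybrid libraries were higher than all parent libraries in both, and the deviations were 1.59 (SE 0.14, adjusted p = 9.4e-05) and 1.63 (SE 0.11, adjusted p = 2.2e-05). In Va116×GDH94 the same genes had deviations of -0.83 and -0.94.

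Of the genes tested, 1562 were in the study's sheets of gene descriptions, and 1267 of these had a known description. The sheets hold genes that differed in the other cross. Each gene list, the pathogenesis-related proteins included, is therefore a selection made on the Va116×GDH94 libraries and not a full gene family. No library of K326×GDH88 or its parents decided which genes the sheets hold. The lists themselves were chosen with earlier results of these data known. Of the 1562 genes, 381 lay above and 244 below, with a median of 0.04. Genes of the sheets thus lay above more often than all genes tested, and below less often. They are the nearer background for the counts of each list.

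**Figure D3:**
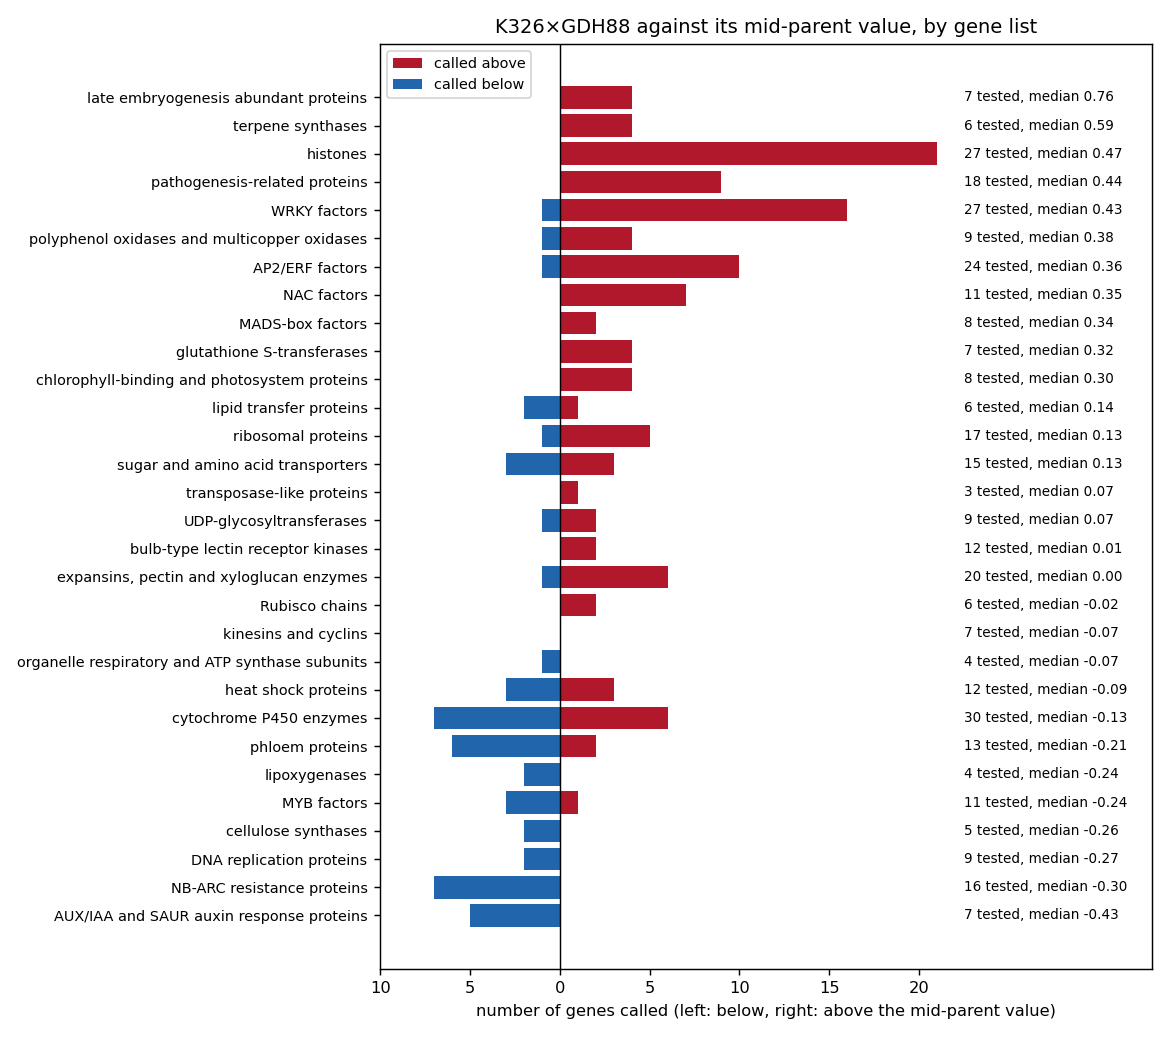
Number of genes called below (blue, to the left) and above (red, to the right) the mid-parent value in K326×GDH88 on each of 30 lists, with the number tested and the median deviation on the log2 scale at the right. Histones had 21 of 27 genes above and none below, and NB-ARC proteins had 7 of 16 below and none above. Of all genes tested 10.9% lay above and 23.8% below.

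Histones, the proteins that package DNA and are made in quantity in cells that copy it, were mostly above the mid-parent value. Of 27 tested histone genes 21 lay above, beside 10.9% of all genes tested and 381 of the 1562 sheet genes. None lay below, and all 27 had a positive deviation in the deposited values, with a median of 0.47. At an unadjusted p under 0.05 in limma 23 lay above and 0 below. Under the 3 scalings 18 to 23 lay above, and 18 to 22 did so without single libraries. The summed level was 1378 to 1513 FPKM in K326, 1446 to 1478 FPKM in GDH88 and 1899, 2326 and 1845 FPKM in K326×GDH88, which does not overlap with the parents. The H3 gene Nitab4.5_0005909g0020 had 26.5, 16.5 and 25.7 FPKM in K326, 18.1, 18.4 and 28.2 FPKM in GDH88 and 36.9, 62.3 and 42.8 FPKM in K326×GDH88. The second hybrid library was the highest, all hybrid libraries were above all parent libraries, and the deviation was 1.05 (SE 0.20, adjusted p = 0.00424). Other genes of dividing cells gave other counts. None of 7 tested kinesins and cyclins was called in limma (1 above and 1 below at an unadjusted p under 0.05), with a median of -0.07 that was 0.02 after quantile normalization, and their sums of 7.97 to 14.1 FPKM in the parents and 10.7 to 13.4 FPKM in the hybrid overlapped. Of 9 DNA replication proteins 2 lay below and none above. The share below was near the 23.8% of all genes tested, and of the 1562 sheet genes 244 lay below. Among the 2 called was Nitab4.5_0001815g0090, a minichromosome maintenance protein of the helicase that opens DNA, at -0.51. Without the second hybrid library none of these 9 was called, and 1 of the kinesins and cyclins was called above without the first K326 library and 1 below without the third hybrid library.

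Counts for transcription factors are read against the 10.9% of all genes tested that lay above and the 23.8% that lay below. Of the 1562 sheet genes from which the lists were drawn, 381 lay above and 244 below, a larger share above. Of 27 WRKY factors, which bind W-box motifs and act in responses to pathogens, 16 lay above and 1 below with a median of 0.43. Of 24 AP2/ERF factors, which include those that respond to ethylene, 10 lay above and 1 below with a median of 0.36. Of 11 NAC factors, named after plant regulators of development and senescence, 7 lay above and none below with a median of 0.35, and 4 lay above without the second hybrid library and with equal totals. Of 11 MYB factors 1 lay above and 3 below with a median of -0.24, and without the third hybrid library 6 lay below. Nitab4.5_0000223g0340, the WRKY gene with the largest deviation, had 3.22, 4.76 and 4.87 FPKM in K326, 1.62, 1.6 and 1.54 FPKM in GDH88 and 5.88, 6 and 6.2 FPKM in K326×GDH88. The 3 hybrid libraries lay close together above K326, the higher parent, and the deviation was 0.93 (SE 0.11, adjusted p = 0.000429). Nitab4.5_0000073g0330, the AP2/ERF gene with the largest deviation, had 4.8, 6.02 and 4.92 FPKM in K326, 1.97, 2.78 and 2.27 FPKM in GDH88 and 9.27, 18.9 and 13.4 FPKM in K326×GDH88. It was above the higher parent in every hybrid library and deviated by 1.65 (SE 0.17, adjusted p = 0.000247). Most WRKY genes were not of this kind. Their summed level was 215 to 275 FPKM in K326, 102 to 106 FPKM in GDH88 and 206.5 to 222 FPKM in the hybrid, so the hybrid lay near K326, and the hybrid libraries lay above all parent libraries in 4 of the 27 genes.

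Genes of light harvesting were above the mid-parent value where they were called. Chlorophyll a/b-binding proteins form the antennae that pass light energy to the photosystems. Nitab4.5_0000592g0360, of this family, had 20.1, 22.7 and 17.9 FPKM in K326, 60.5, 58.99 and 55.6 FPKM in GDH88 and 83.7, 95.7 and 99.96 FPKM in K326×GDH88. The hybrid was above GDH88, the higher parent, in every library, and the deviation was 1.41 (SE 0.08, adjusted p = 1.5e-05). Of the 8 tested genes on the list of chlorophyll-binding and photosystem proteins 4 lay above, beside 10.9% of all genes tested, and none below. The median of this list was 0.30. The genes that the study chose for qRT-PCR gave values in the same libraries. For NtLhcb2, Nitab4.5_0005511g0010, a light-harvesting protein of photosystem II, the values were 36.9, 40.99 and 38.9 FPKM in K326, 62.4, 58.3 and 59.3 FPKM in GDH88 and 76.7, 79.97 and 75.4 FPKM in K326×GDH88, with all hybrid libraries above all parents and a deviation of 0.67 (SE 0.06, adjusted p = 8.9e-05). NtLhcb1, Nitab4.5_0002814g0050, had 10.7, 10.8 and 9.36 FPKM in K326, 17.7, 15.9 and 16.3 FPKM in GDH88 and 14.4, 19.3 and 19.5 FPKM in K326×GDH88, where the hybrid overlapped with GDH88, and it deviated by 0.40 (SE 0.10, adjusted p = 0.0124), a call that was lost without the second hybrid library, when the deviation was 0.34. NtPsb, NtatpF and NtrbcL, which are named for photosystem II, for ATP synthase and for the large chain of Rubisco, were not called, with deviations of -0.35, 0.11 and -0.13 and adjusted p of 0.201, 0.625 and 0.734. NtPsbA was at 0.04 to 0.58 FPKM and was not tested.

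Genes of respiration in the same primer set, and a further gene of the set, gave calls in both directions. NtOGDH, Nitab4.5_0009327g0010, a part of the oxoglutarate dehydrogenase complex of the tricarboxylic acid cycle, had 9.81, 8.08 and 8.61 FPKM in K326, 11.1, 10.7 and 10.98 FPKM in GDH88 and 5.97, 5.75 and 8.51 FPKM in K326×GDH88. The hybrid was under GDH88 in every library and overlapped with K326, and the deviation was -0.50 (SE 0.11, adjusted p = 0.00787). NtSDHB, Nitab4.5_0002158g0230, the iron-sulphur subunit of succinate dehydrogenase, had 3.64, 3.56 and 2.87 FPKM in K326, 4.26, 4.21 and 4.19 FPKM in GDH88 and 4.79, 5.75 and 4.81 FPKM in K326×GDH88. Here the hybrid was above all parent libraries, with a deviation of 0.36 (SE 0.09, adjusted p = 0.014) that was 0.28 and not called without the second hybrid library. NtMDH1, Nitab4.5_0000044g0330, a malate dehydrogenase, deviated by 0.20 (SE 0.06, adjusted p = 0.0303), and its deviation was -0.01 after quantile normalization. This call was also lost without the third K326 library, any GDH88 library, the second hybrid library or the third hybrid library, at 0.15 to 0.21. NtLR25, Nitab4.5_0002995g0050, which the primer table lists without a description, lay above by 0.44 with an adjusted p of 0.0109. The paper counts it neither among its photosynthesis genes nor among its respiration genes, and does not state its role. The primers below are shown since they mark the transcripts of the largest deviations in this set, 1 above and 1 below the mid-parent value, and they were read from the study's primer table in the 5′ to 3′ direction.
NtLhcb2 forward: tctccgagcaaactccatc
NtLhcb2 reverse: gcctccgccaactctgtat
NtOGDH forward: acatgcaaaaatggagaatggtgtg
NtOGDH reverse: ctcagctgttgcgtccaactt

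The sieve element occlusion genes lay far below the mid-parent value. Their proteins form the filaments that plug injured sieve tubes of the phloem. All 6 tested genes with this description lay below, beside 23.8% of all genes tested. Of these 6 genes 5 lay below by 1 or more, and the median was -1.22. The 3 genes with values given here were named for being among the 6 lowest with a description. This count is therefore in part fixed by that choice. On the whole phloem list of 13 genes 2 lay above and 6 below, with a median of -0.21. Nitab4.5_0003542g0070 had 44.7, 25.4 and 23.7 FPKM in K326, 62.6, 62.2 and 60.9 FPKM in GDH88 and 15.3, 13.9 and 22.8 FPKM in K326×GDH88. The 3 hybrid libraries were lower than all parent libraries, and the deviation was -1.30 (SE 0.19, adjusted p = 0.00135). Nitab4.5_0003917g0020 had 38.1, 18.01 and 20.4 FPKM in K326, 53.4, 52.6 and 51.8 FPKM in GDH88 and 13.9, 10.8 and 17.9 FPKM in K326×GDH88, with the same order of genotypes and a deviation of -1.30 (SE 0.21, adjusted p = 0.00192). Nitab4.5_0000510g0150 had 36.05, 18.8 and 19.4 FPKM in K326, 56.7, 55.1 and 55.1 FPKM in GDH88 and 13.6, 12.9 and 18.2 FPKM in K326×GDH88 and deviated by -1.25 (SE 0.18, adjusted p = 0.0013). In all 6 genes the first K326 library was the highest of K326, and in Nitab4.5_0000229g0030 the third hybrid library overlapped with K326. By the pairwise limits used below, the 3 genes with values given here were classed as like K326. The other phloem genes on the list were of the phloem protein 2 type. Of these 7 genes 2 lay above and none below, with Nitab4.5_0006355g0030 at 0.64, a call that was kept only without the first K326 library or the third GDH88 library, with deviations of 0.50 to 0.69 without the other libraries.

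**Figure D4:**
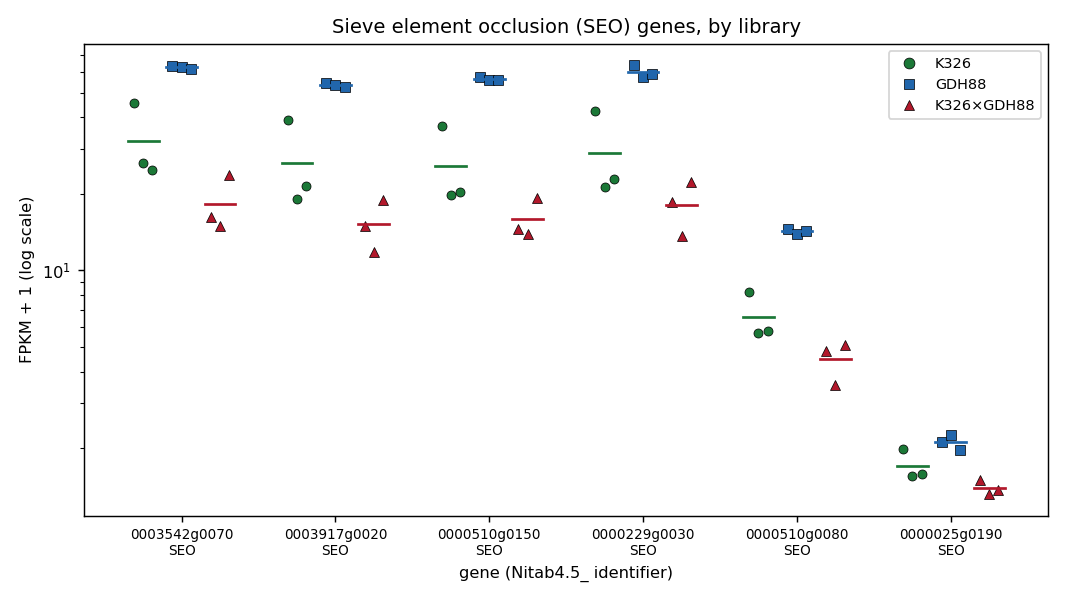
FPKM + 1 on a log scale of the 6 sieve element occlusion genes in each library of K326 (circles), GDH88 (squares) and K326×GDH88 (triangles), with bars at the mean of 3 libraries. GDH88 was the highest genotype and K326×GDH88 the lowest, with 15.3, 13.9 and 22.8 FPKM in the hybrid against 23.7 FPKM or more in both parents for Nitab4.5_0003542g0070.

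Among genes whose 3 hybrid libraries all lay below all parent libraries, the 6 lowest deviations and the 6 lowest with a known description, the sieve element occlusion genes aside, belonged to mixed kinds. Outside this limit Nitab4.5_0005785g0010, described with the genes of a single parent, had the lowest deviation of all genes called, -2.32. Nitab4.5_0000256g0310, listed without a known function, had 92.4, 99.5 and 96.8 FPKM in K326, 40.1, 53.3 and 54.05 FPKM in GDH88 and 26.6, 11.5 and 21.3 FPKM in K326×GDH88, lower than all parent libraries in each hybrid library, and deviated by -1.82 (SE 0.20, adjusted p = 0.000321). Nitab4.5_0007310g0020, also of unknown function, fell from 401 FPKM or more in the parents to 197, 109 and 204.5 FPKM in the hybrid, a deviation of -1.78. Nitab4.5_0000729g0130, a sulphate transporter, had 9.4, 4.99 and 4.1 FPKM in K326, 10.6, 9.81 and 11.3 FPKM in GDH88 and 1.31, 1.12 and 2.67 FPKM in K326×GDH88. Its highest hybrid library was below its lowest parent library, with a deviation of -1.76 (SE 0.22, adjusted p = 0.000635). Nitab4.5_0013021g0030 carries a BAG domain, which in plants and animals binds the chaperone Hsp70, and it had 97.8, 70.97 and 67.8 FPKM in K326, 76.1, 75.9 and 77.2 FPKM in GDH88 and 26.8, 17.3 and 24.2 FPKM in K326×GDH88. It deviated by -1.74 (SE 0.14, adjusted p = 6.2e-05), with parents that were nearly alike. Nitab4.5_0000368g0080 and Nitab4.5_0002157g0080, without descriptions, deviated by -1.72 and -1.74, and Nitab4.5_0002716g0020, with a domain of unknown function, by -1.35.

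Auxin response genes were mostly below. Of 7 tested auxin response genes 5 lay below, beside 23.8% of all genes tested, and none above, with a median of -0.43. AUX/IAA proteins hold back the transcription that auxin switches on. Nitab4.5_0001988g0030, which joins a B3 DNA-binding domain to the AUX/IAA dimerization domain as auxin response factors do, had 6.52, 2.98 and 3.21 FPKM in K326, 4, 4.32 and 3.84 FPKM in GDH88 and 1.94, 1.77 and 2.05 FPKM in K326×GDH88. All hybrid libraries were lower than all parent libraries, with a deviation of -0.79 (SE 0.17, adjusted p = 0.00788). The same absence of overlap held for the 5 called genes, but 2 genes were called below without the second hybrid library. NB-ARC proteins are the intracellular receptors of plant disease resistance. Of 16 tested genes 7 lay below, beside 23.8% of all genes tested, none lay above and 9 were not called, with a median of -0.30. Under the 3 scalings 5 to 10 lay below, and 1 lay above with median-ratio scaling and quantile normalization, the same number as above at an unadjusted p under 0.05. Their summed level was 85.6 to 106 FPKM in K326, 78.9 to 82.1 FPKM in GDH88 and 52.2 to 66.6 FPKM in the hybrid, with no overlap. Nitab4.5_0002616g0130, which also holds a mannose-binding lectin domain, had 29.7, 23.1 and 25.8 FPKM in K326, 30.4, 27.7 and 28.7 FPKM in GDH88 and 20.7, 14.02 and 21.1 FPKM in K326×GDH88 and deviated by -0.56 (SE 0.12, adjusted p = 0.00789).

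Genes of drying tissue and of specialised metabolism gave smaller counts. These are read against the 10.9% of all genes tested that lay above and the 23.8% that lay below. Late embryogenesis abundant proteins protect cells that lose water, and 4 of 7 lay above and none below with a median of 0.76. Of these, Nitab4.5_0010236g0020 had 22.2, 27.99 and 26.5 FPKM in K326, 10.9, 11.2 and 12.1 FPKM in GDH88 and 44.5, 62.7 and 37.4 FPKM in K326×GDH88, with all hybrid libraries above all parents and a deviation of 1.41 (SE 0.14, adjusted p = 0.000166). Of 6 terpene synthases 4 lay above and none below with a median of 0.59, and 2 lay above without the first hybrid library. Nitab4.5_0009618g0010, of this family, had 16.1, 19.1 and 23.4 FPKM in K326, 19.7, 18.2 and 18.7 FPKM in GDH88 and 39.4, 39.7 and 34.3 FPKM in K326×GDH88. The parents were alike and the hybrid was higher in every library, by 0.95 (SE 0.10, adjusted p = 0.00028). Of 7 glutathione S-transferases 4 lay above and none below, and without the third GDH88 library 1 did. Of 30 cytochrome P450 enzymes 6 lay above and 7 below, the latter a share near the 23.8% of all genes tested. Of the 1562 sheet genes, the nearer background, 381 lay above and 244 below. Nitab4.5_0001182g0070 and Nitab4.5_0001797g0100 at the ends of the P450 list deviated by 1.10 and -1.01.

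On the remaining lists several counts below, such as 3 of 12 heat shock proteins and 3 of 15 transporters, were near the 23.8% of all genes tested. Over all genes tested 10.9% lay above, and of the 1562 sheet genes 381 lay above and 244 below. Among these lists, 5 of 17 ribosomal proteins lay above and 1 below with a median of 0.13, but 3 and 4 with equal totals, 8 and 0 with median-ratio scaling and 3 and 2 after quantile normalization. Of 20 expansins, pectin and xyloglucan enzymes, which loosen the cell wall, 6 lay above and 1 below with a median of 0.00, but 5 and 6 with equal totals and 7 and 0 with both other scalings. Of 12 heat shock proteins 3 lay above and 3 below, and Nitab4.5_0005707g0010, a DnaJ co-chaperone gene at the upper end, had 0.69, 1.1 and 1.51 FPKM in K326, 21.1, 24.6 and 18.6 FPKM in GDH88 and 21.4, 18.8 and 15.8 FPKM in K326×GDH88. Its hybrid libraries were like GDH88, and the deviation was 1.52 (SE 0.14, adjusted p = 0.000102). Of 6 lipid transfer proteins, which are common in the epidermis, 1 lay above and 2 below, with Nitab4.5_0000014g0430 at 0.91 and Nitab4.5_0000508g0230 at -0.99. The sugar and amino acid transporters had 3 of 15 above and 3 below, and the cellulose synthases 2 of 5 below. Polyphenol oxidases and multicopper oxidases had 4 of 9 above and 1 below, MADS-box factors 2 of 8 above, UDP-glycosyltransferases 2 of 9 above and 1 below, and bulb-type lectin receptor kinases 2 of 12 above. Lipoxygenases had 2 of 4 below (0 without the second hybrid library), respiratory and ATP synthase subunits of organelles 1 of 4 below, and transposase-like genes 1 of 3 above. Most of these small counts moved by 1 or more genes when a single library was left out, and MADS-box factors above ran from 1 to 4.

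More genes were classed as like K326 than as like GDH88, and more genes were higher in K326 than in GDH88. Of the genes tested, 651 differed by 2-fold or more between the parents, 426 of them higher in K326 (1.2% of genes) and 225 higher in GDH88 (0.635%). Against K326 the hybrid was higher in 251 genes (0.708%) and lower in 160 (0.451%), and against GDH88 it was higher in 495 (1.4%) and lower in 331 (0.934%), by the same limits. Of 504 genes that could be given a pattern from these pairwise calls, 252 were dominant and like K326, 98 dominant and like GDH88, 77 overdominant above both parents, 48 overdominant below both parents and 29 additive. A further 840 genes had a call in some comparison but no pattern. Without the third hybrid library 117 genes were overdominant above both parents.

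The degree of dominance was taken as the deviation divided by the distance from the mid-parent value to the higher parent, so that 0 is the mid-parent value and 1 the higher parent. Its median over the 651 genes was 0.28, with quartiles of -0.13 and 0.91. For genes higher in K326 the median was 0.43, and for genes higher in GDH88 it was 0.08. The hybrid was beyond the higher parent in 139 genes and below the lower parent in 45. A mid-parent value on the log scale lies under the plain average wherever the parents differ. With the plain average of FPKM, by which 10.2% of all genes tested lay above and 24.6% below, 160 of these genes lay above and 132 below, in place of 237 and 71. The reads of all genotypes were aligned to the K326 genome, and the part of that choice in the likeness to K326 was not tested.

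Genes with RNA in only 1 parent were few, 2 in K326 and 5 in GDH88 by limits of 10 FPKM in a parent and 0.5 FPKM in the other. The hybrid had a median of 61.3% of the level in K326 for the former and 35.7% of the level in GDH88 for the latter, and 6 of the 7 genes were at 0.5 FPKM or more in the hybrid, so that its libraries held RNA that came from each parent. The exception, Nitab4.5_0005785g0010, a lipid transfer-like protein with 46.0, 12.7 and 23.3 FPKM in GDH88, was listed at 0 in K326 and in K326×GDH88. Nitab4.5_0000002g0110, a transposase-like gene, had 0.46, 0.32 and 0.25 FPKM in K326, 14.6, 14.96 and 14.3 FPKM in GDH88 and 5.55, 5.75 and 7.06 FPKM in K326×GDH88. The hybrid lay between its parents in every library. Its deviation was 0.63 (SE 0.09, adjusted p = 0.00134) from the log mid-parent value and -0.26 from the plain average.

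The deviations of K326×GDH88 were set beside those of Va116×GDH94, which has no library in common with it. In Va116×GDH94 8893 of 36068 genes lay above (24.7%) and 7705 below (21.4%). The deviation differed between the hybrids in 11810 of 36573 genes (32.3%), and it was higher in K326×GDH88 in 3532 (9.66%) and lower in 8278 (22.6%). With median-ratio scaling these counts were 5250 and 5326, with quantile normalization 4772 and 5682, and with equal totals 3193 and 8205. Of the 341 genes that deviated by 1 or more in K326×GDH88, 190 differed between the hybrids. Of the 208 genes 1 or more above that were also tested in Va116×GDH94, 110 lay above there and 25 below, and of 114 genes 1 or more below, 70 lay below there and 5 above.

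Histones differed in direction between the hybrids. Their median deviation was 0.47 in K326×GDH88 and -0.77 in Va116×GDH94, where 21 of 27 lay below, and 24 of the 27 differed between the hybrids. The NB-ARC list had medians of -0.30 and 0.48, and 13 of 16 genes differed. The lists were selected on the Va116×GDH94 libraries, so large deviations in that hybrid are in part what chose them. WRKY genes lay above in both, at medians of 0.43 and 0.96, with 17 of 27 different in size or direction. Of the 6 sieve element occlusion genes, which lay below in both, none passed the test of a difference, with adjusted p of 0.103 to 0.468. The 4 CAP genes far above in K326×GDH88 all differed between the hybrids, and their deviations in Va116×GDH94 were -0.45 to 0.82. Nitab4.5_0014031g0010 and Nitab4.5_0005400g0020 also lay above in Va116×GDH94, by 0.67 and 0.82 (adjusted p of 9.8e-05 and 1.0e-05 in limma). Nitab4.5_0003771g0010 and Nitab4.5_0004861g0030 were not called there.

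**Figure D5:**
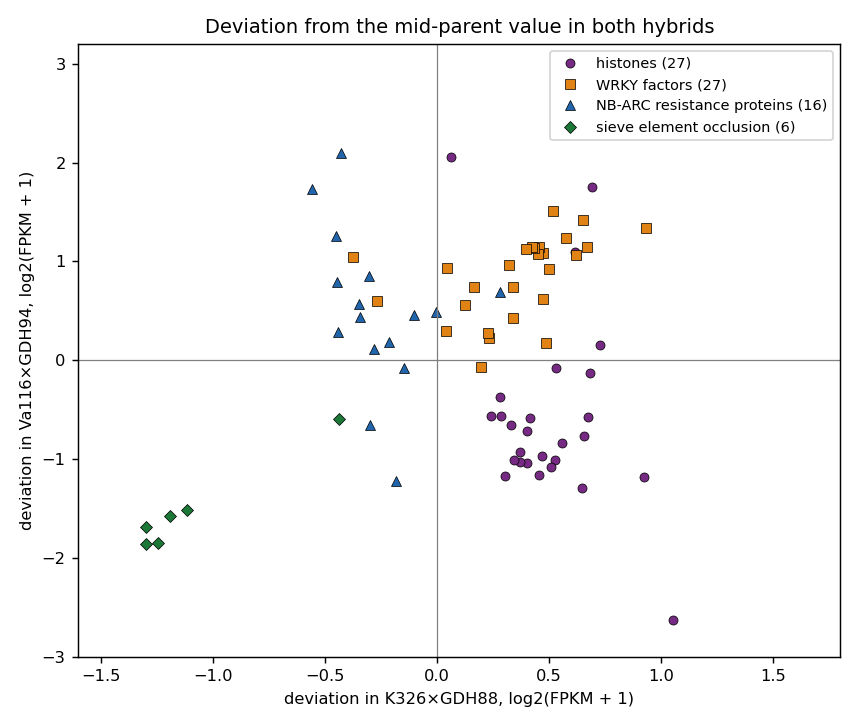
Deviation from the mid-parent value on log2(FPKM + 1) in K326×GDH88 (x axis) and Va116×GDH94 (y axis), where each point is a gene of 4 groups with the number of genes in the key. Histones had a median of 0.47 on the x axis and -0.77 on the y axis, and NB-ARC genes had -0.30 and 0.48.

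Some of the genes with a deviation of 1 or more were on the same scaffold, as read from the number in their identifiers. Of the 341 genes, 53 shared a scaffold with another, on 25 scaffolds, and on 21 of these all such genes deviated in the same direction. How often other tested genes share a scaffold was not counted. Since 226 of the 341 genes lay above, agreement in direction is common from that split alone, and these counts are a description. Among them were Nitab4.5_0000073g0330 with Nitab4.5_0000073g0270, which lay above by 1.65 and 1.05, Nitab4.5_0000510g0150 with Nitab4.5_0000510g0080, both sieve element occlusion genes below by 1 or more, and the CAP gene Nitab4.5_0004861g0030 with Nitab4.5_0004861g0040. Neighbours on a scaffold can be copies of a gene that share reads, and which of them carry the change was not tested.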

How the data were processed

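RNA of tobacco leaf was sequenced by the study in 18 libraries of 6 genotypes, 3 replicates each, and 9 libraries of K326, GDH88 and K326×GDH88 were used, with the other 9 for comparison. Per the methods and processing notes, the authors aligned paired reads to the K326 genome with HISAT2 and deposited 1 table of FPKM for 69500 genes. Both RSEM and StringTie are named for quantification, and their versions are not given in the sources used here. FPKM is scaled for gene length and library size, and a few very abundant genes can shift all others. Depth is unknown, since no read counts were used, and precision rests on replicates.

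Values were analysed as log2(FPKM + 1), with genes at a mean of at least 1 FPKM in any genotype of the cross. Contrasts were fitted in limma 3.58.1 with a mean-variance trend in R 4.3.3, and p-values were two-sided and adjusted by Benjamini-Hochberg over all genes tested. A call had an adjusted p under 0.05, and pairwise calls and patterns also a 2-fold difference. No exact permutation test was used for single genes. With 3 replicates against 3, as in the pairwise comparisons, such a test cannot go below 0.1. The script was tested on simulated data. Gene lists were built from descriptions in the study's supplementary sheets. Named genes were, among called genes without overlap, the 6 highest and 6 lowest overall and among described genes, the highest and lowest called gene of each list, and the genes with qRT-PCR primers. Members and lists were chosen with earlier results of these data known.

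The alternatives were other pseudocounts (0.1 and 0.5), filters, scalings, a linear mid-parent value, a fit on all 18 libraries, a replicate block, weights per genotype, no trend, other limits and leaving out each library. Level classes by parent or other-cross libraries were alternatives chosen after seeing the data. The gene table of RefSeq matched 0 identifiers, so no coordinates are given.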

Additional observations from a re-analysis of the deposited data

Results flagged for a closer look

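The deviation from the mid-parent value differed between K326×GDH88 and Va116×GDH94 in 42 of the 65 named genes that had the test, beside 32.3% of all genes tested, by a test of the difference itself in limma over all 18 libraries. The values below are the deviation in K326×GDH88 minus that in Va116×GDH94 on log2(FPKM + 1), and many of the genes belong to lists that were selected on the Va116×GDH94 libraries. Most named genes were chosen as extremes of the deviation in K326×GDH88, so a difference from the other hybrid is in part fixed by that choice and the count is a description.

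Among defence genes the differences were those of Nitab4.5_0003771g0010 (6.40), Nitab4.5_0004861g0030 (5.57), Nitab4.5_0014031g0010 (3.16) and Nitab4.5_0005400g0020 (2.88), all of the CAP family, of Nitab4.5_0008527g0010 (3.02) of glycoside hydrolase family 17 and of the NB-ARC gene Nitab4.5_0002616g0130 (-2.29). In photosynthesis and respiration they were those of the Rubisco small chain Nitab4.5_0002207g0050 (9.65), of NtLhcb1 Nitab4.5_0002814g0050 (-1.91), NtLhcb2 Nitab4.5_0005511g0010 (-0.48), NtPsb Nitab4.5_0003961g0020 (-2.15), NtatpF Nitab4.5_0003634g0020 (-1.03), NtrbcL Nitab4.5_0000841g0020 (-1.23), NtSDHB Nitab4.5_0002158g0230 (1.30) and NtMDH1 Nitab4.5_0000044g0330 (0.34). The difference of the Rubisco small chain lay mostly in the other hybrid, with deviations of 0.97 in K326×GDH88 and -8.68 in Va116×GDH94.

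For genes of chromatin, replication and ribosomes the differences were those of the histone H3 gene Nitab4.5_0005909g0020 (3.68), the minichromosome maintenance gene Nitab4.5_0001815g0090 (0.56) and the ribosomal protein genes Nitab4.5_0008458g0010 (1.11) and Nitab4.5_0000477g0050 (0.84). Transcription factors gave WRKY genes Nitab4.5_0000223g0340 (-0.40) and Nitab4.5_0000627g0060 (-1.42), the AP2/ERF gene Nitab4.5_0000073g0330 (0.80), the NAC gene Nitab4.5_0000188g0310 (0.73), MYB genes Nitab4.5_0000010g0120 (-0.27) and Nitab4.5_0004757g0010 (-1.93) and the MADS-box gene Nitab4.5_0004622g0050 (-0.74).

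Genes of metabolism and the cell wall gave the terpene synthase Nitab4.5_0009618g0010 (1.90), cytochrome P450 genes Nitab4.5_0001182g0070 (0.50) and Nitab4.5_0001797g0100 (-0.72), UDP-glycosyltransferases Nitab4.5_0006870g0030 (-0.80) and Nitab4.5_0001740g0020 (-0.87), and pectinesterase inhibitor domain genes Nitab4.5_0010733g0010 (2.12) and Nitab4.5_0000357g0140 (0.77). The remaining genes were the amino acid transporters Nitab4.5_0006950g0010 (1.07) and Nitab4.5_0000322g0030 (-1.54), the phloem protein 2 gene Nitab4.5_0006355g0030 (-0.90), the lipid transfer protein Nitab4.5_0000508g0230 (1.37), the transposase-like gene Nitab4.5_0000002g0110 (-2.99), the DUF1677 gene Nitab4.5_0002716g0020 (-1.31), Nitab4.5_0001754g0010 (1.16) described as PAR1, NtLR25 Nitab4.5_0002995g0050 (0.46), and Nitab4.5_0004861g0040 (3.27) and Nitab4.5_0000368g0080 (-1.14) without a description.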

How the results depend on the processing

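The number of reads per gene was not at hand, so the limit that depth sets on low genes is unknown. Counts of calls moved with the scaling, the pseudocount, the limits and the libraries. With median-ratio scaling 6166 genes lay above and 5015 below the mid-parent value, 75 lay 1 or more below, 19 were additive, 24 were overdominant below both parents and 5326 had a lower deviation than in Va116×GDH94. After quantile normalization 5618 lay below and 27 were overdominant below. With equal totals 2446 lay above, 13004 below and 194 by 1 or more below, and 85 were overdominant below. A pseudocount of 0.1 gave 469 genes 1 or more above and 454 below, 60 additive, 507 like K326, 195 like GDH88, 124 overdominant above and 163 below, and a pseudocount of 0.5 gave 212 genes 1 or more below and 82 overdominant below. An adjusted p under 0.01 left 1852 above and 3138 below. Without a fold limit the patterns were 358 additive, 2231 like K326, 1487 like GDH88, 1502 overdominant above and 3194 below.

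Without single libraries 2569 to 3745 genes lay above and 4645 to 9195 below, 170 to 275 lay 1 or more above and 92 to 184 below, and 67 to 117 were overdominant above and 32 to 67 below. The highest count of genes 1 or more below, 184, came without the third hybrid library. Of 65 named genes under all settings, 1274 of 1347 values kept direction and call, 67 kept direction but lost the call (15 genes), and 6 changed direction. Nitab4.5_0000044g0330 was at -0.0145 after quantile normalization, and Nitab4.5_0000002g0110 at -0.26 from the plain average of FPKM. The other 4 belong to genes that were not called. Nitab4.5_0003634g0020 (NtatpF) was at -0.10 without the second hybrid library and -0.0028 with equal totals, and Nitab4.5_0000841g0020 (NtrbcL) at 0.02 without the third hybrid library and 0.01 after quantile normalization. The cause of these changes was not tested.

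Deviations of libraries with the same replicate number had correlations of -0.03 to 0.03 except for the second libraries of K326 and K326×GDH88 (0.22), so the numbers were not taken as pairs. With the replicate block 3822 genes lay above and 8146 below.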
